A study of Rattus norvegicus with 28 samples.

Results

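Egr1, Egr2, Egr3, Egr4, Ier2, Ier3 and Ier5 were followed by RNA-seq of INS-1 cells, an insulin-secreting line from a rat insulinoma. These 7 genes of 17455 in the table were picked by symbol, as the early growth response genes and the immediate early response (Ier) genes. They were chosen with earlier results of these data known, and each had 1 transcript there. The cells were WT or carried a CRISPR knock-in of S983A in Med14, a scaffold subunit of the Mediator complex, and each genotype was left untreated (CON) or exposed to exendin-4 (Ex-4, 10 nM), which activates the GLP-1 receptor, or to forskolin (FSK, 10 µM), which stimulates adenylyl cyclase directly. Treatment lasted 1, 8 or 16 h, which gave 14 groups of 2 libraries. All groups, CON included, had been washed and moved into medium without serum before treatment. Each genotype had 1 CON group for all hours, and no hour had a control of its own. Changes against CON may thus include effects of time in that medium, which cannot be told apart here. The study grew its knock-in lines from single sorted cells and worked with a pair of them, and the labels do not say which line gave which library. A genotype difference thus cannot be told apart from a difference between cell lines. The comparisons ask how these genes respond to cAMP signals, for how long, and whether the response differs between the genotypes.

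Early growth response genes encode zinc finger transcription factors that bind GC-rich DNA. They are immediate early genes, whose transcription starts within minutes of a signal without new protein synthesis, and their mRNAs are short-lived. In the classical scheme, cAMP acts through PKA and CREB at cAMP response elements (CREs), and ERK acts through SRF and its ternary complex partners at CArG boxes, and Egr1 can receive both signals. The Ier genes share a name rather than a fold: Ier2 and Ier5 are related nuclear proteins, Ier5 being linked to HSF1 activity, while Ier3 (IEX-1) is a stress-induced regulator of cell survival and ERK signalling.

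Promoters were examined because CREs and CArG boxes are the textbook entry points of these signals. RefSeq promoter sequences (GRCr8) matched 5 of the 7 genes, Egr1, Egr2, Egr4, Ier2 and Ier5. The 250 bases before the annotated start are shown 5′ to 3′ in the direction of transcription for the EGR gene at the highest level, for the EGR member with the largest genotype difference, for the one Ier promoter with a full CRE and for the gene that fell. Capitals mark the CRE TGACGTCA, its half-site TGACG on either strand, and the CArG box CCWWWWWWGG, where W is A or T. Only exact matches were counted, so near matches to these patterns go unmarked. The stretches lie at chr18:26736828-26737077 (plus strand) for Egr1, chr4:119607818-119608067 (minus strand) for Egr4, chr19:40399123-40399372 (plus strand) for Ier2 and chr13:69822543-69822792 (minus strand) for Ier5.
Egr1: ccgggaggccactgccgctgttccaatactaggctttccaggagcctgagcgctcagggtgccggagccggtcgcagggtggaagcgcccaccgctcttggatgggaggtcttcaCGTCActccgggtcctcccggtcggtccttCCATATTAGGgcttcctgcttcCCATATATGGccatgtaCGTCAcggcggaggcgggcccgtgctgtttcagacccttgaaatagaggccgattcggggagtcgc
Egr4: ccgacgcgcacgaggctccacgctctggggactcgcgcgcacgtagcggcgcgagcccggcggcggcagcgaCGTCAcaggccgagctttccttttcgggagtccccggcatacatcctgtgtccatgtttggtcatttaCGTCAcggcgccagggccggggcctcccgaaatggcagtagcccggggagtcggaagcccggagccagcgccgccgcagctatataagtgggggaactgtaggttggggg
Ier2: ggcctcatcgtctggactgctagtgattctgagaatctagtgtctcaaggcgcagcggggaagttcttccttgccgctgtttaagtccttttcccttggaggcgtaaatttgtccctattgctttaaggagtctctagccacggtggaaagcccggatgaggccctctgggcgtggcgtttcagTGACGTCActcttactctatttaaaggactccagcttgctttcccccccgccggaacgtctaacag
Ier5: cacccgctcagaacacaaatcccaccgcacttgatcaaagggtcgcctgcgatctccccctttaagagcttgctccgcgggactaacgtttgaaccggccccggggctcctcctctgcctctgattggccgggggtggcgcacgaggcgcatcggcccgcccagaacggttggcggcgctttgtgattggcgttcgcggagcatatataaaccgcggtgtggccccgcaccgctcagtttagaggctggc

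Egr1 held 2 CRE half-sites, starting 135 and 66 bases before the start, and 2 CArG boxes between them. Egr2 had the same CArG box position and half-site position nearest its start, 1 of each. Egr4 held 2 half-sites, 178 and 110 bases before the start, and had no CArG box match. Ier2 held 1 full CRE at 66 bases before the start, whose 2 overlapping half-sites are the only ones counted there. Ier5 had no match to any of these motifs in the 300 bases from 250 before to 50 after the start, and the EGR site GCGNGGGCG had no match in any of the 5 promoters. Over all 33469 RefSeq promoters of this length, read on both strands, 21.2% held a half-site, 4.96% held at least 2, 1.83% held a full CRE, 1.64% held a CArG box and 4.98% an EGR site. These matches describe letters in a short window, and no binding was measured here.

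**Figure D1:**
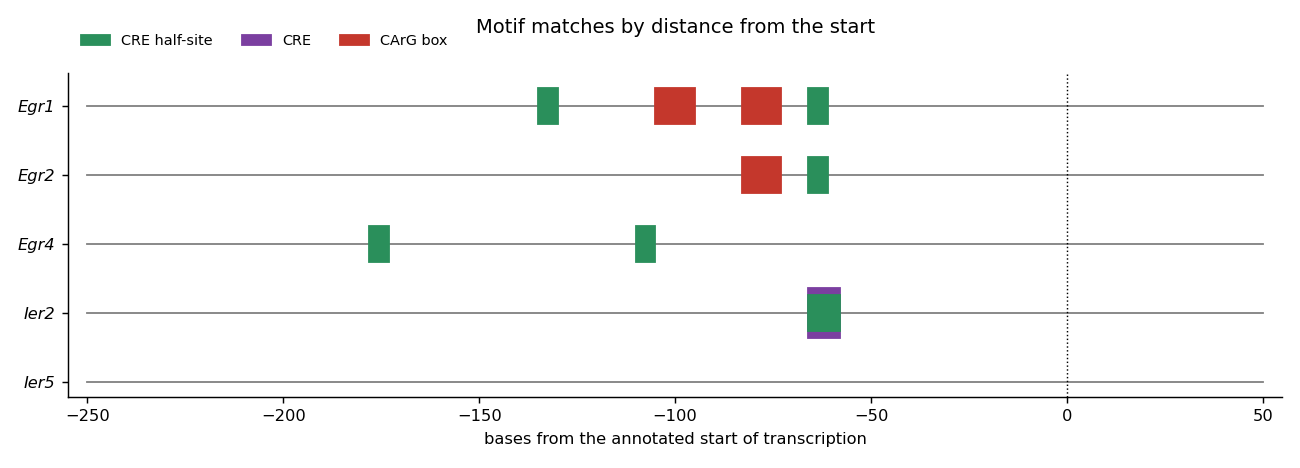
Motif matches in the RefSeq promoters of 5 of the genes, with the distance from the annotated start of transcription in bases on the x axis and 1 line per gene. Egr1 shows 2 half-sites flanking 2 CArG boxes, Egr4 2 half-sites alone, Ier2 a full CRE and Ier5 no match.

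Depth was 42551133 to 57231981 fragments per library, and 92635979 in 1 library, Med14 S983A 8 h FSK replicate 2. Of 10 beta cell markers 9 were in the table and each of the 9 averaged over 30 TPM, whereas Sst, Ppy, Ghrl and the 6 acinar markers stayed under 1 TPM in every library. Gcg, the glucagon gene, was detected at 6.09 to 1345 TPM. TPM, a length-scaled share of the transcripts in a library, is a relative scale, and the median log2 change over all genes tested against CON of the same genotype was −0.34 at 8 h of FSK in WT, −0.28 at 8 h of FSK in Med14 S983A, −0.20 and −0.16 at 16 h of FSK and Ex-4 in WT, and −0.11 to −0.03 in the other treatments. With scaling on the ERCC spike-ins, the 16 h medians in WT became 0.14 for both agents, and the median of Med14 S983A against WT at CON moved from −0.07 to 0.12. In Med14 S983A the medians became −0.15 at 16 h of Ex-4, 0.12 at 16 h of FSK and −0.30 at 1 h of FSK. The median of the change in Med14 S983A minus that in WT moved from 0.09 to −0.31 at 16 h of Ex-4. At 1 h of FSK it moved from −0.01 to −0.25, and in the other treatments it was −0.07 to 0.02 with this scaling. The labels do not state that replicates came from separate cultures, so p-values measure only the spread between these libraries. In bulk RNA, fewer cells expressing a gene and less RNA per cell cannot be told apart.

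Tests covered the 10275 genes that averaged 1 TPM or more, and a change was called when its adjusted p was under 0.05 and it exceeded 1.5-fold on the log2(TPM + 1) scale. Egr1, Egr4, Ier2, Ier3 and Ier5 were tested, with means of 28.2, 4.93, 9.79, 13.8 and 9.69 TPM. Egr2 averaged 0.184 TPM and Egr3 0.29 TPM, and neither passed. Egr4 stood at only 0.398 TPM in WT CON and passed through its treated groups, so that some difference between its groups was built into its passing.

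Within 1 h, Egr1, Egr4, Ier2 and Ier3 rose and Ier5 fell in WT cells under either agent. The rises were called for 4 of 5 tested members at 1 h of Ex-4, where 1.75% of all genes were called higher, and for the same 4 at 1 h of FSK, where 2.53% were. Ier5 was called lower under both, against 1.12% of all genes with Ex-4 and 4.94% with FSK. Med14 S983A cells had the same calls at 1 h of FSK (3.19% of all genes higher and 7.2% lower). At 1 h of Ex-4 they had all but Ier3 (2.03% higher and 1% lower). Because the members were chosen with earlier results known, and Egr4 passed the filter through its treated groups, these counts are description only.

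Egr1, which had the highest mean of the 7 genes over the 28 libraries but lay below Ier5 at CON, stood at 7.49 and 6.75 TPM in the WT CON libraries. It reached 58.0 and 62.2 TPM at 1 h of Ex-4 and 116 and 109 TPM at 1 h of FSK, so that the groups lay far apart. The log2 changes were 2.91 ± 0.09 (SE; adjusted p = 3.78e-19) and 3.81 ± 0.09 (adjusted p = 4.48e-22). In Med14 S983A, Egr1 went from 4.36 and 4.56 TPM at CON to 33.9 and 34.1 TPM with Ex-4 and to 86.6 and 84.4 TPM with FSK. Each of these levels lay below its WT counterpart without overlap, and the log2 changes, 2.68 ± 0.09 and 3.99 ± 0.09, differed from those of WT by −0.23 (95% interval −0.48 to 0.02) and 0.18 (−0.08 to 0.43), neither called.

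By 8 h most of the 1 h rise of Egr1 was gone with either agent. WT libraries held 26.8 and 27.8 TPM at 8 h of FSK and 11.1 and 13.5 TPM at 16 h, still above CON by 1.80 ± 0.09 and 0.71 ± 0.09 on the log2 scale. The 16 h call was lost without WT 16 h FSK replicate 2, with a log2 change of 0.58. At 8 and 16 h of Ex-4 the WT means were 10.7 ± 0.51 and 9.59 ± 1.07 TPM (SD, n = 2), and these changes of 0.52 and 0.38 were under the fold required. Both depended on the setting. The 8 h change was called with median centring (0.65), ERCC scaling (0.67), edgeR (0.67) and DESeq2 (0.75) and without WT CON replicate 1 (0.59), and the 16 h change with ERCC scaling (0.67), edgeR (0.59) and DESeq2 (0.76). In Med14 S983A at 8 h of FSK, Egr1 was at 12.6 and 10.5 TPM, and at 16 h at 4.58 and 5.50 TPM, where the change of 0.14 (95% interval −0.04 to 0.32) was not called. With Ex-4 the same cells held 7.98 and 7.81 TPM at 8 h and 7.09 and 6.94 TPM at 16 h, the latter above the 16 h FSK libraries without overlap, with changes of 0.70 ± 0.09 (called) and 0.55 ± 0.09 (not called).

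Egr4, which codes for a further zinc finger factor of the family, was close to absent at CON and showed the widest relative range of the 5 tested genes. It was measured at 0.344 and 0.452 TPM in WT CON and at 0.303 and 0.741 TPM in Med14 S983A CON, which overlap. At 1 h of Ex-4 WT libraries held 8.77 and 8.94 TPM, and at 1 h of FSK 19.03 and 17.56 TPM, log2 changes of 2.82 ± 0.12 and 3.79 ± 0.12. On the log2(TPM + 1) scale the rise of so low a gene is understated, and in TPM these means were 22.2 and 45.97 times the CON mean, against 8.44 and 15.8 times for Egr1. Med14 S983A libraries held 5.42 and 6.74 TPM at 1 h of Ex-4 and 19.6 and 18.2 TPM at 1 h of FSK, the former below WT without overlap and the latter overlapping WT.

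At 8 and 16 h of FSK the genotypes lay apart. WT libraries still held 7.92 and 7.49 TPM of Egr4 at 8 h of FSK, while Med14 S983A libraries held 1.91 and 1.55 TPM, a WT mean 4.46 times that of the knock-in. At 16 h of FSK the values were 2.73 and 2.31 TPM in WT and 0.528 and 0.451 TPM in Med14 S983A, again without overlap, and the latter did not differ from its CON beyond the spread (log2 change −0.02, 95% interval −0.26 to 0.23). After Ex-4, WT Egr4 was still called higher at 8 h (0.82 ± 0.12, 1.35 and 1.58 TPM). In Med14 S983A the 8 h Ex-4 change of 0.33 was under the fold required. It was called with a pseudocount of 0.1 (0.77), edgeR (0.79) and DESeq2 (0.80).

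Egr2 and Egr3, the members best known from nerve and lymphoid cells, were near the limit of detection and are given by library. Egr3 had 1 fragment in each WT CON library and 0 fragments in both Med14 S983A CON libraries. It reached 0.973 and 1.38 TPM (28 and 46 fragments) at 1 h of FSK in WT and 1.38 and 1.83 TPM (47 to 56 fragments) in Med14 S983A. Taking 3 fragments per library as the level that a count of 0 allows, the rise in Med14 S983A was at least 17.2-fold with FSK and at least 1.95-fold with Ex-4.

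Egr2 had 8 to 13 fragments in the WT CON libraries, at 0.114 and 0.152 TPM. It was at 0.300 and 0.421 TPM after 1 h of Ex-4 and at 0.319 and 0.366 TPM after 1 h of FSK in WT, and at 0.431 and 0.769 TPM after 1 h of FSK in Med14 S983A. Each of these 1 h groups lay above its CON group without overlap. An edgeR quasi-likelihood test on recovered fragments with no filter, added after the data were seen, called Egr2 and Egr3 higher at 1 h of both agents in both genotypes (adjusted p of 2.79e-09 to 0.0166 for Egr2 and 1.22e-18 to 0.00924 for Egr3). The background was 1.83% of 14852 genes called higher at 1 h of Ex-4 and 2.86% at 1 h of FSK in WT, and 1.89% and 3.54% in Med14 S983A. At 8 h of FSK the edgeR test also called Egr3 higher, in WT (9 to 13 fragments, adjusted p = 0.000411) and Med14 S983A (4 to 9 fragments, adjusted p = 0.00286). There 13.8% and 16.3% of all genes were called higher. Against CON, limma without the filter called only Egr3 at 1 h of FSK, in both genotypes.

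Summed over the 4 EGR genes, the level was 7.68 ± 0.43 TPM in WT CON, 69.6 ± 3.19 at 1 h of Ex-4 and 133 ± 5.91 at 1 h of FSK (SD, n = 2). Egr1 made up 92.7% of that sum at CON and 85.1% at 1 h of FSK. Egr4 made up 5.22% of it at CON and 21.7% at 8 h of FSK in WT, and 12.8% at 8 h of FSK in Med14 S983A. Egr2 and Egr3 together made up 0.615% to 2.24% of the sum in every group.

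**Figure D2:**
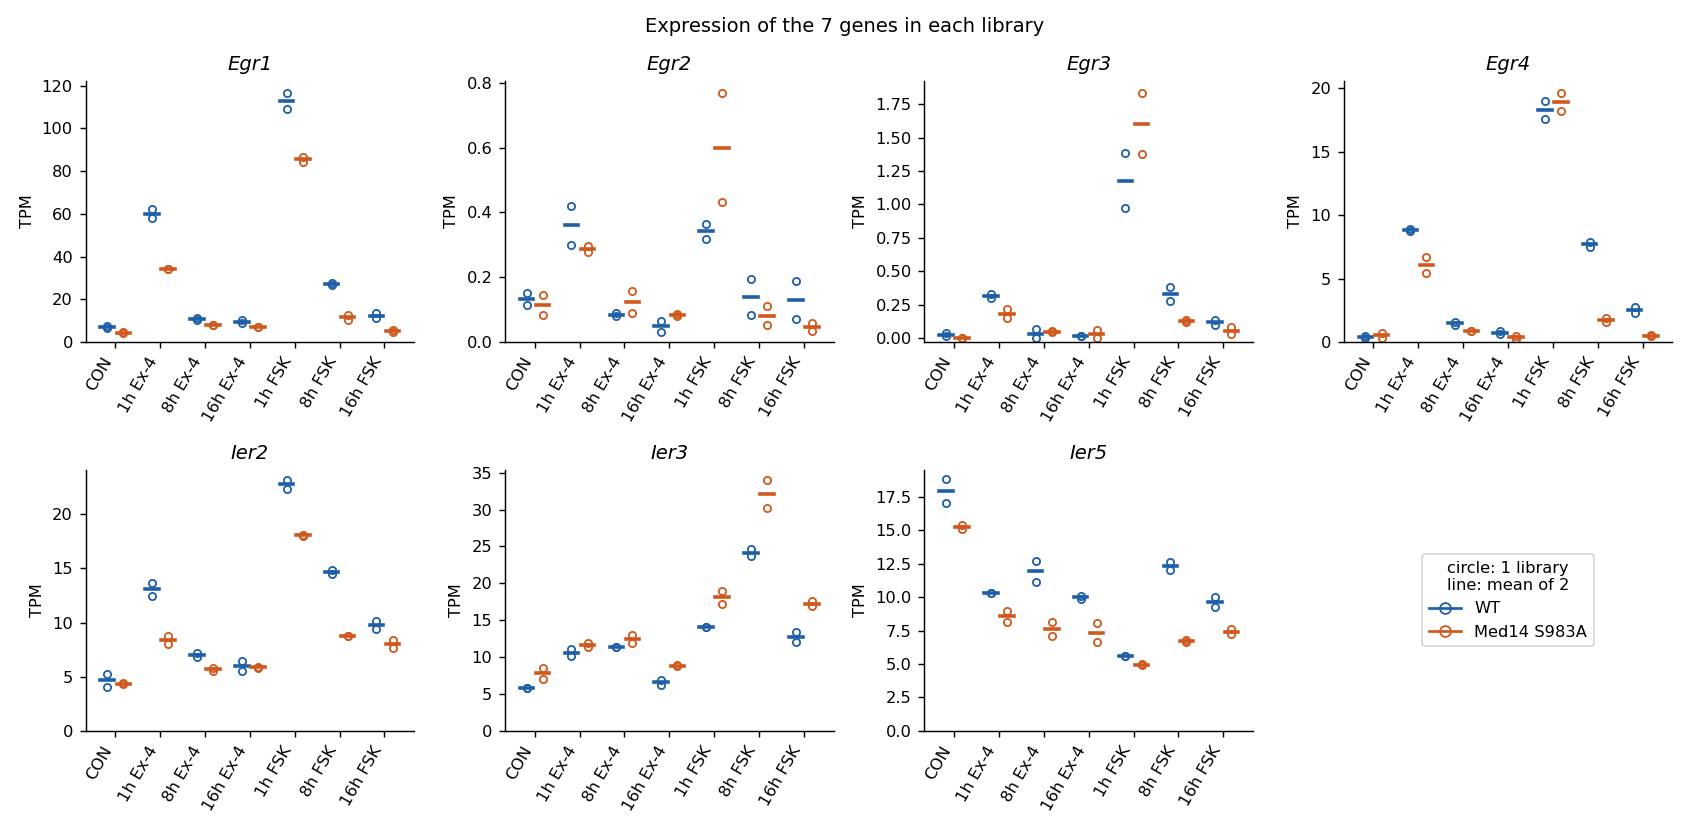
TPM of the 7 genes by condition, 1 panel per gene with its own linear axis, where each circle is 1 library and each line the mean of 2, WT in blue and Med14 S983A in orange. Egr1, Egr4 and Ier2 peak at 1 h of FSK, Ier3 at 8 h of FSK, and Ier5 is highest at CON.

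Ier2, a nuclear protein linked to transcriptional control, followed the EGR genes in time but with a smaller rise and a slower return. WT libraries went from 4.09 and 5.21 TPM at CON to 13.7 and 12.5 TPM at 1 h of Ex-4 and 23.2 and 22.4 TPM at 1 h of FSK. The log2 changes were 1.32 ± 0.08 and 2.08 ± 0.08. Ier2 stayed up with FSK, at 14.9 and 14.5 TPM at 8 h and 10.2 and 9.41 TPM at 16 h in WT. In Med14 S983A, from 4.33 and 4.39 TPM at CON, it held 8.01 and 8.80 TPM at 1 h of Ex-4, 17.99 and 18.11 TPM at 1 h of FSK, 8.76 and 8.74 TPM at 8 h of FSK and 7.65 and 8.41 TPM at 16 h of FSK. The genotypes overlapped at CON and did not overlap at 1 or 8 h of either agent.

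Ier3, the survival and stress regulator, took another course, with its highest level at 8 h of FSK. WT libraries rose from 5.78 and 5.84 TPM at CON to 14.1 in both at 1 h of FSK, 23.7 and 24.7 TPM at 8 h and 13.4 and 12.1 TPM at 16 h. In Med14 S983A the values were 7.08 and 8.56 TPM at CON, 18.97 and 17.19 TPM at 1 h of FSK, 34.0 and 30.2 TPM at 8 h and 16.95 and 17.54 TPM at 16 h, above WT in every library pair. The 8 h FSK changes were 1.89 ± 0.08 and 1.91 ± 0.08. Ex-4 gave a lower plateau, at 11.1 and 10.2 TPM at 1 h and 11.3 and 11.4 TPM at 8 h in WT, and the change at 16 h was 0.16 (95% interval 0.00 to 0.32; adjusted p = 0.0735), which was not called. In Med14 S983A the 1 h Ex-4 change of 0.52 was under the fold required, but was called with edgeR (0.61) and without CON replicate 2 (0.65). The 8 h change of 0.61 passed it, though without CON replicate 1 or 8 h Ex-4 replicate 1 the latter was 0.49 or 0.55 and was not called.

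Ier5, a gene known for its induction by radiation and heat in other cells, went the other way and was highest at CON in both genotypes. WT libraries held 17.03 and 18.84 TPM at CON, 10.3 in both at 1 h of Ex-4 and 5.62 and 5.60 TPM at 1 h of FSK. The log2 changes were −0.74 ± 0.08 and −1.52 ± 0.08. Med14 S983A libraries held 15.4 and 15.1 TPM at CON, 8.99 and 8.17 TPM at 1 h of Ex-4 and 4.93 and 4.96 TPM at 1 h of FSK. With FSK the lowest level of Ier5 thus fell in the hour when Egr1, Egr4 and Ier2 were highest, whereas with Ex-4 its lowest mean came at 16 h, at 9.99 TPM in WT and 7.35 TPM in Med14 S983A.

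At 8 h of FSK, Ier5 lay above its 1 h level in both genotypes without overlap. It was at 12.6 and 12.1 TPM in WT, where the change of −0.50 against CON was not called, and at 6.61 and 6.83 TPM in Med14 S983A, a called change of −1.07 ± 0.08. At 16 h Ier5 was called lower under both agents in both genotypes, from −0.78 to −0.97. In WT at 8 h of Ex-4 the change of −0.55 was called with a pseudocount of 0.1 (−0.59) and without CON replicate 1 (−0.62) or 8 h Ex-4 replicate 1 (−0.64). The 16 h calls in WT rested on the scaling: with ERCC scaling the changes were −0.48 for Ex-4 and −0.49 for FSK, under the fold required.

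Counted over the later hours, WT calls at 8 h were 2 of 5 tested members higher with Ex-4, Egr4 and Ier3 (3.61% of all genes), and 4 higher with FSK, Egr1, Egr4, Ier2 and Ier3 (8.77%). With Ex-4 at 8 h, Egr1 (0.65 to 0.75) and Ier2 (0.63 to 0.75) were called too under median centring, ERCC scaling, edgeR and DESeq2, which makes 4 of 5. At 16 h they were Ier5 lower with Ex-4 (8.28%), and with FSK the same 4 higher (10.3%) and Ier5 lower (24.1%). With Ex-4 at 16 h, Egr1, Egr4 and Ier2 were called higher by DESeq2 (1.24 for Egr4 and 0.69 for Ier2), and each by at least 1 other alternative. In Med14 S983A, 8 h of Ex-4 gave Egr1 and Ier3 higher (3.21%) and Ier5 lower (3.09%). Egr4 was called higher there too with a pseudocount of 0.1 (0.77), edgeR (0.79) and DESeq2 (0.80). In the same cells 8 h of FSK gave 4 higher (11.6%) and Ier5 lower (34.5%). At 16 h, Ex-4 left Ier5 lower (7.15%), with Egr1 called higher under a pseudocount of 0.1 (0.64), median centring (0.61) and edgeR (0.70), and FSK left Ier2 and Ier3 higher (12.2%) and Ier5 lower (21.1%). At 8 h of FSK 43.6% of all genes in WT and 46.1% in Med14 S983A were called in one direction or the other, so a call alone sets a gene little apart there.

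**Figure D3:**
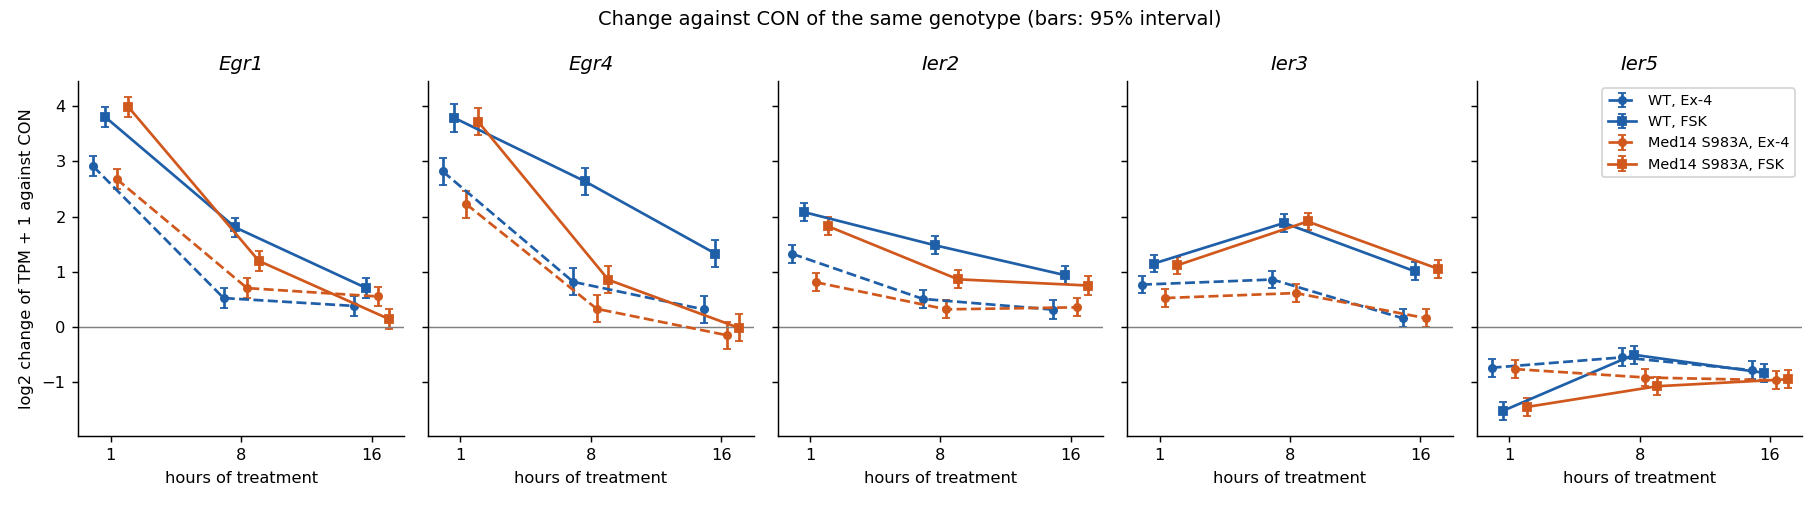
Log2 change of TPM + 1 against CON of the same genotype for the 5 tested genes, at 1, 8 and 16 h on an evenly spaced axis, with 95% intervals, WT in blue, Med14 S983A in orange, FSK as solid and Ex-4 as dashed lines. Egr4 with FSK shows the widest gap between genotypes, at 2.64 in WT against 0.85 in Med14 S983A at 8 h.

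At CON the genotypes gave no call among these genes. None of the 5 tested members was called at CON, where limma called 19.4% of all genes, although at an unadjusted p under 0.05 the count was 3 (Egr1, Ier3 and Ier5). Egr1 was lower in Med14 S983A by a log2 difference of −0.57 ± 0.09 (adjusted p = 2.81e-06), just under the fold required. It was called with a pseudocount of 0.1 (−0.66) and without WT CON replicate 2 (−0.64) or Med14 S983A CON replicate 2 (−0.60). For these 5 genes edgeR made 0 calls at CON (22.2% of all genes) and DESeq2 made 1, Ier3 (23.4%). Ier3 was 0.37 ± 0.08 higher (adjusted p = 0.000192) and Ier5 −0.22 ± 0.08 (adjusted p = 0.0175). Ier2 and Egr4 did not differ beyond the spread, with 95% intervals of −0.23 to 0.10 and −0.14 to 0.35.

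The genotype difference in a response, the change in Med14 S983A minus the change in WT, was called for 4 of 15 tests with FSK and for 0 of 15 with Ex-4. All 4 were smaller rises in the knock-in at 8 or 16 h. At 8 h of FSK the calls were Egr1, Ier2 and Egr4, against 6.21% of all genes called lower, and at 16 h of FSK Egr4 alone, against 6.4%. At 1 h of FSK limma called 0 of the 5, against 1.64% of all genes in either direction, with 1 at an unadjusted p under 0.05 (Ier2) and 0 calls by edgeR or DESeq2.

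Egr4 carried the largest of these differences. Its 8 h FSK response was −1.785 ± 0.17 lower in Med14 S983A (adjusted p = 3.67e-09), and its 16 h FSK response −1.35 ± 0.17 (adjusted p = 2.67e-07). Both calls held in every alternative that tested Egr4, with ranges of −2.68 to −1.58 and −2.87 to −1.14. At 1 h of FSK the same difference was −0.06 (95% interval −0.41 to 0.28), was not called in any alternative, and ranged from −0.60 with DESeq2 to 0.15. DESeq2 was run with size factors from the spike-ins. With ERCC scaling the median of this difference over all genes was −0.25 at 1 h of FSK. The replicate with the most fragments belongs to Med14 S983A at 8 h of FSK, and its Egr4 value of 1.55 TPM lay beside 1.91 TPM in its partner.

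Ier2 and Egr1 showed smaller differences at 8 h of FSK, −0.62 ± 0.11 (adjusted p = 6.53e-05) and −0.61 ± 0.12 (adjusted p = 0.000208). These lay close to the fold required. The Egr1 call was lost with a pseudocount of 0.1 (−0.58) and without any of WT CON replicate 2 (−0.54), WT 8 h FSK replicate 2 (−0.58), Med14 S983A CON replicate 2 (−0.58) or Med14 S983A 8 h FSK replicate 2 (−0.49), and the Ier2 call without WT CON replicate 1 (−0.48). Ier5 at 8 h (−0.57, adjusted p = 0.000141) and Egr1 at 16 h (−0.57, adjusted p = 0.000348) lay just on the other side. Both were called with a pseudocount of 0.1 (−0.64 and −0.61), median centring (−0.62 and −0.66) and ERCC scaling (−0.66 and −0.69). Both were called by edgeR (−0.68 and −0.72) and DESeq2 (−0.74 for each) as well. Leaving out 1 of 3 libraries for Ier5, or 1 of 4 for Egr1, also brought these past the fold, at up to −0.64 and −0.70. Ier3 had nearly equal FSK responses, with differences of −0.03, 0.03 and 0.04 at the 3 times, each with a 95% interval inside −0.26 to 0.27.

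With Ex-4, limma called none of the 15 differences, while 7 had an unadjusted p under 0.05 and 4 an adjusted p under 0.05, each under 1.5-fold or over the p threshold. The share of all genes called by limma was 0.672%, 2.77% and 7.24% at 1, 8 and 16 h. In the same 15 tests edgeR made 1 call, against 0.652%, 3.16% and 8.53% of all genes, and DESeq2 made 3, against 0.545%, 2.28% and 18.8%. The nearest were Egr4 at 1 h (−0.59 ± 0.17, adjusted p = 0.0907), called without Med14 S983A CON replicate 1 (−0.80) or 1 h Ex-4 replicate 2 (−0.73), and Ier2 at 1 h (−0.51 ± 0.11, adjusted p = 0.0128), called without WT CON replicate 2 (−0.66). Egr4 at 8 h (−0.49) was called by DESeq2 (−1.26) and without Med14 S983A CON replicate 1 (−0.70). Egr4 at 16 h of Ex-4 (−0.47) was called in 5 alternatives, among them edgeR at −1.53 and DESeq2 at −1.87, and without Med14 S983A CON replicate 1 (−0.68) or 16 h Ex-4 replicate 2 (−0.61), on 41 to 60 fragments in WT and 13 to 31 in Med14 S983A. With ERCC scaling, on which the DESeq2 values also rest, the median difference over all genes was −0.31 at 16 h of Ex-4. Whether the FSK differences exceed the Ex-4 differences was not tested.

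**Figure D4:**
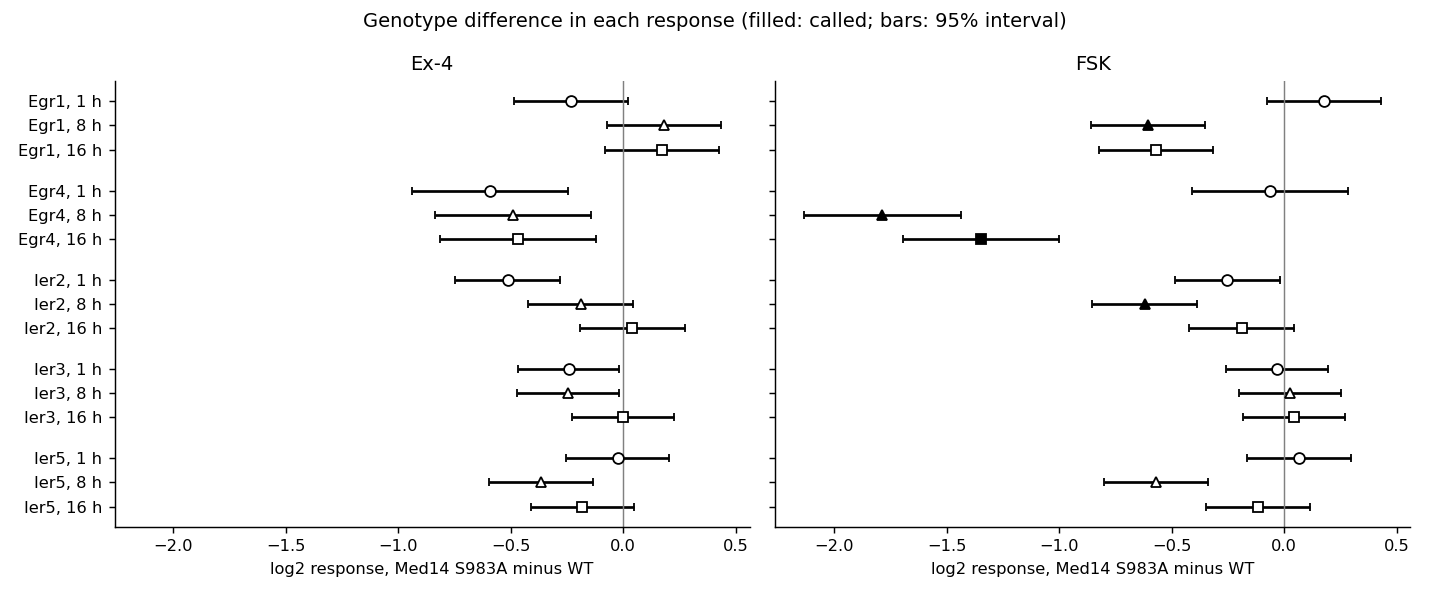
Log2 response in Med14 S983A minus that in WT for each tested gene and hour, Ex-4 on the left and FSK on the right, with 95% intervals and filled symbols for called differences. The filled symbols are Egr1, Egr4 and Ier2 at 8 h and Egr4 at 16 h of FSK, all left of 0, while Ier3 with FSK lies on 0.

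Another measure is the part of the 1 h change that was left later, in TPM. It is scaled to the 1 h change, unlike the log2 differences above. For Egr4, 40.8% of the 1 h FSK rise was left at 8 h in WT, with 37.9% to 44.0% over the 8 combinations of single libraries, and 6.56% (4.29% to 8.96%) in Med14 S983A. For Egr1 it was 19.1% (17.7% to 20.6%) in WT and 8.76% (7.28% to 10.3%) in Med14 S983A, and for Ier2 55.5% (51.8% to 59.0%) and 32.1% (31.7% to 32.4%). At 8 h of Ex-4 the order was the other way for Egr1, with 6.69% (5.15% to 8.34%) left in WT and 11.6% in Med14 S983A, where every combination lay above those of WT. The genotypes overlapped for Ier2, at 27.8% (19.3% to 36.4%) and 32.8% (26.6% to 40.3%), and for Egr4, at 12.6% (10.6% to 14.7%) and 6.66% (2.28% to 11.8%). Ier3 exceeded its 1 h change at 8 h of FSK in both, at 221% and 237%. At 16 h of FSK the shares in WT and Med14 S983A were 28.3% and 26.8% for Ier2, which overlapped. They were 11.8% and −0.18% for Egr4 and 4.91% and 0.71% for Egr1, without overlap. At 16 h of Ex-4 Ier2 had 16.1% (4.01% to 28.2%) left in WT and 37.0% (32.0% to 43.0%) in Med14 S983A. Egr1 had 4.66% and 8.63% there, also without overlap, and Egr4 4.12% and −2.86%, which overlapped. These shares are descriptions with no test, and the combinations share libraries.

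At 1 h and, in WT, at 8 h, most of these genes changed more with FSK than with Ex-4, in a direct contrast that does not use CON. At 1 h in WT, Egr1, Egr4 and Ier2 were called lower with Ex-4 than with FSK (1.14% of all genes) and Ier5 higher (0.652%). The log2 differences were −0.90 ± 0.09, −0.97 ± 0.12, −0.76 ± 0.08 and 0.78 ± 0.08. Ier3 at −0.38 was under the fold required. In Med14 S983A at 1 h the differences were −1.30 for Egr1, −1.497 for Egr4, −1.02 for Ier2 and −0.59 for Ier3, all called lower (1.58%), and 0.69 for Ier5, called higher (1.45%). The Ier3 call was lost with ERCC scaling, at −0.40, with DESeq2, at −0.43, and without replicate 1 of either group, at −0.56 and −0.53.

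At 8 h in WT, Egr1, Egr4, Ier2 and Ier3 were called lower with Ex-4 (4.77% of all genes), with FSK means 2.56, 5.26, 2.10 and 2.13 times the Ex-4 means. At 16 h Egr4, Ier2 and Ier3 were called lower (7.29%), Ier2 not without Ex-4 replicate 2 (−0.53) or FSK replicate 1 (−0.57). In Med14 S983A at 8 and 16 h limma on TPM called Ier3 alone (6.72% and 5.76% of all genes lower), at −1.30 ± 0.08 and −0.90 ± 0.08, while the Egr1, Egr4 and Ier2 differences at 8 h were −0.49, −0.53 and −0.54, under the fold required. These depended on the setting: all 3 were called with median centring (−0.80, −0.83 and −0.85) and edgeR (−0.79, −1.17 and −0.88), Egr4 also with a pseudocount of 0.1 (−0.88) and DESeq2 (−0.82), Ier2 with a pseudocount of 0.1 (−0.61), and Egr1 and Egr4 without 8 h FSK replicate 2 (−0.61 and −0.62). At 16 h Ier2 was called with ERCC scaling (−0.71) and DESeq2 (−0.80), and Egr4 with DESeq2 (−0.79). Ier5 was not called between agents at 8 or 16 h in either genotype, with differences from −0.05 to 0.16.

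Over the 14 groups, Egr1 and Egr4 had group means that ran together (Pearson r of log2 values 0.98), and both ran with Ier2 (r of 0.90 and 0.93). Ier3 had r of 0.31 with Egr1, and Ier5 had negative r with each of the other 6 members, from −0.61 to −0.43. These correlations are over group means of 28 libraries that all members share, and are given as description. Among 8833 genes that averaged 5 TPM or more, the closest to Egr1 were Fbxo34 (r 0.99), Fosb (0.98) and Nr4a3 (0.97), and to Egr4 Fosb (0.99), Egr1 and Nr4a3. Fosb and Nr4a3 are themselves immediate early genes coding for an AP-1 subunit and an orphan nuclear receptor. Ier2 ran most closely with Dyrk3 (0.98), Fos (0.96) and Ppp1r11 (0.96), Ier3 with Arf6 (0.95), Arl4a (0.94) and Cdk12 (0.93), and Ier5 less closely with Map1s (0.90), Zkscan5 (0.89) and Tigd3 (0.89).

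The order of the groups differed by gene. Egr1, Egr4 and Ier2 had both 1 h FSK groups on top and CON of either genotype among the lowest, with overlap between neighbours in 4, 6 and 5 of the 13 steps of that order. Egr2 and Egr3 overlapped in 10 and 7 of 13 steps, so most of their order is not resolved. Ier3 overlapped in 4 steps and Ier5 in 5.

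No gene of the upstream ERK and SRF arm passed the thresholds in the hour when Egr1, Egr4 and Ier2 peaked. Of 25 names listed, older symbols included, 20 were in the table and 19 were tested. Limma, edgeR and DESeq2 each called 0 at 1 h in either genotype with either agent. Of all genes, limma called 2.87% to 10.4% in these contrasts, in either direction. By limma, 3 to 9 of the 19 had an unadjusted p under 0.05 in these 4 contrasts, and their changes ran from −0.28 to 0.39. Their median change at 1 h of FSK in WT was −0.05, against −0.10 for all genes. Srf, the factor of the CArG box, changed by 0.06 ± 0.05 and its partner Elk1 by 0.01 ± 0.06 in that contrast. At 8 h of FSK in WT 1 of the 19 was higher (8.77% of all genes) and 4 were lower (34.8%), among them Elk1 at −0.70 ± 0.06.

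Of the 6 listed partners of EGR and IER proteins, 5 were tested. Limma, edgeR and DESeq2 called 0 at 1 h in WT, where limma called 2.87% of all genes with Ex-4 and 7.47% with FSK. By limma, 2 partners had an unadjusted p under 0.05 for Ex-4 and 4 for FSK. Nab1 and Nab2 code for corepressors that bind EGR proteins. Nab1 was called higher at 8 h of FSK, by 1.24 ± 0.06 in WT and 0.75 ± 0.06 in Med14 S983A, whereas Nab2 was at −0.24 and −0.64, the latter called. Ier5l, a relative of Ier5, was called lower in Med14 S983A CON than in WT CON (−0.90 ± 0.09) and higher at 1 h of FSK in Med14 S983A (1.05 ± 0.09).

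Other immediate early genes gave the setting. Of 26 tested, 15 were called higher and 4 lower at 1 h of Ex-4 in WT, against 1.75% and 1.12% of all genes. Their median change was 1.42 there, against −0.06 for all genes. At 1 h of FSK 19 were called higher and 4 lower, against 2.53% and 4.94% of all genes. The list was chosen with earlier results of these data known. The largest rises with Ex-4 were Klf4 (3.01), Nfil3 (2.83) and Per1 (2.41), coding for a zinc finger factor, a bZIP repressor and a clock component. The falls were led by Klf6 (−1.46), Phlda1 (−0.96) and Klf10 (−0.78), so the fall of Ier5 was not alone among genes usually classed as immediate early. In Med14 S983A the counts were 16 higher and 3 lower at 1 h of Ex-4, against 2.03% and 1% of all genes. At 1 h of FSK they were 19 higher and 5 lower, against 3.19% and 7.2%.

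In the rn6 annotation of the deposited table the transcripts were Egr1 NM_012551 (chr18:27657903-27660101), Egr2 NM_053633 (chr20:22454461-22458753), Egr3 NM_017086 (chr15:51756978-51759434), Egr4 NM_019137 (chr4:117293620-117296082), Ier2 NM_001009541 (chr19:25774146-25775670), Ier3 NM_212505 (chr20:3438798-3440002) and Ier5 NM_001025137 (chr13:72742210-72744302), all quantified over exons.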

How the data were processed

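RNA-seq was performed on duplicates in 14 groups, taken from the sample titles. Reads had been mapped by the authors to rn6 plus ERCC spike-ins with STAR 2.5.3a, and the deposited TPM values over exons came from HOMER 4.11.1. The deposited count table holds read counts for the 92 spike-ins and no genes. For their own gene calls the authors used DESeq2 1.24.0 with spike-in size factors. Table columns were matched to samples through the condition and replicate in their names. The transcript with the highest mean TPM was kept per symbol.

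Log2(TPM + 1) was fitted with limma 3.58.1 in R 4.3.3 on all 28 libraries, with a mean per group, moderated with a trend, and two-sided p-values adjusted by Benjamini-Hochberg within a contrast. Fragments were recovered from TPM, exon length and the ERCC counts, and 100% of 135800 values checked were whole within 0.05 reads, against 22.7% by chance. They entered edgeR 4.0.16 and DESeq2 1.42.0 as alternatives, the latter with size factors from the ERCC spike-ins. Intervals are 95%. Floors cover counting error only. The scripts were tested on simulated data. Named genes are the 7 members, Nab1, Nab2, Srf, Elk1 and Ier5l, the 3 largest called rises and falls of each list in WT at 1 h of Ex-4, and the 3 genes most like each member. The members and lists were chosen with earlier results of these data known.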

Additional observations from a re-analysis of the deposited data

Results flagged for a closer look

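In 4 cases the response to FSK differed between the genotypes in a direct test of the difference (limma, Med14 S983A minus WT on the log2 scale). They are Egr4 at 8 h (−1.785, adjusted p = 3.67e-09) and at 16 h (−1.3458, adjusted p = 2.67e-07), Ier2 at 8 h (−0.6193, adjusted p = 6.53e-05) and Egr1 at 8 h (−0.6059, adjusted p = 0.000208). For Egr4, WT and Med14 S983A libraries did not overlap at 8 or 16 h of FSK and overlapped at CON and at 1 h of FSK.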

How the results depend on the processing

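Of 1720 alternative values for the 5 tested members, 1623 stayed on the same side of the thresholds, 19 lost a call, 78 gained one and 0 reversed a called direction, while 57 values that were not called changed sign. The counts of calls for Ex-4 against CON were 8 in each genotype and became 14 in WT and 13 in Med14 S983A with edgeR on fragments without a filter, added after the data were seen, which also tests Egr2 and Egr3. That setting gave 12 calls in place of 7 for Ex-4 against FSK in Med14 S983A. For genotype at CON, 0 calls became 1 with a pseudocount of 0.1 (Egr1) and 1 with DESeq2 (Ier3). For the Ex-4 genotype differences, 0 calls became 1 with a pseudocount of 0.1, median centring, ERCC scaling or edgeR, 2 with edgeR without a filter and 3 with DESeq2. For the FSK genotype differences, 4 calls became 2 with a minimum of 5 TPM, where Egr4 is not tested. Under median centring, ERCC scaling, edgeR and DESeq2, Ier5 at 8 h and Egr1 at 16 h of FSK were called in addition.

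Leaving out 1 library at a time gave 8 to 10 calls for Ex-4 in WT, 13 to 14 for FSK in WT, 7 to 9 for Ex-4 and 13 in every case for FSK in Med14 S983A, 0 to 1 at CON, 0 to 3 and 3 to 5 for the Ex-4 and FSK genotype differences, and 10 to 11 and 6 to 9 for Ex-4 against FSK in WT and Med14 S983A. The lone library left in a group is then assumed to vary like the others. The labels do not say whether replicate numbers pair the samples. Correlations of deviations ran from −0.28 to 0.283 over 91 pairs of groups, with a median of 0.003 and 17 pairs over 0.1. These values do not settle whether there was a pairing. With the replicate number as a block the counts stayed at 8, 14, 8, 13, 0, 0, 4, 11 and 7 in the order given here. A second transcript could not be tried, because each member has 1. For Egr2 and Egr3, fragments per library were few, which limits what their values can show.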
